A study of Mus musculus with 2 samples.

Results

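The Mir17 to Mir92-1 cluster is a run of 6 microRNA (miRNA) hairpins, Mir17, Mir18, Mir19a, Mir20a, Mir19b-1 and Mir92-1, that lie together on mouse chromosome 14. The members were chosen by gene symbol in the GENCODE M21 annotation and not by any measured value. All 6 were found among the 2202 miRNA genes counted. Mir18 is the symbol of the gene whose products are named miR-18a. Small RNA of under 30 nt was sequenced from whole adrenal glands of male B6CASTF1/J mice aged 2 months, which are first-generation hybrids of C57BL/6J and CAST/EiJ. The only group held 2 libraries, from animal 3 (replicate 1) and animal 4 (replicate 2), with no treatment, second tissue or second age. The labels give the libraries separate biosamples and biological replicate numbers but 1 common donor entry. Any p-value below therefore measures a difference between these 2 libraries and not between conditions.

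MicroRNAs are cut from hairpins in longer primary transcripts, loaded into Argonaute proteins, and pair with target messenger RNAs mainly through the seed, bases 2 to 8 of the mature strand. The hairpins of this cluster are made from a single primary transcript, which MYC and E2F factors induce in dividing cells. The cluster is known for promoting proliferation and survival and for its amplification in lymphoma. Adult adrenal tissue divides slowly, mostly in the outer cortex, and the gland is rich in vessels, where products of the cluster are also known to act.

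The 6 mature products fell into 4 seed groups, so the cluster carried several targeting specificities at once. The sequences are shown because the levels below are compared within these groups. They come from RefSeq (build GRCm38.p6) and are written 5′ to 3′, with the seed in capitals. Each is the arm best known from that hairpin. The counts were made per gene and do not tell the arms of a hairpin apart.
miR-17-5p (Mir17): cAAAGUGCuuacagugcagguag
miR-20a-5p (Mir20a): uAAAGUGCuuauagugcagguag
miR-18a-5p (Mir18): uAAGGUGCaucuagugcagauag
miR-19a-3p (Mir19a): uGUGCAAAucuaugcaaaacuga
miR-19b-3p (Mir19b-1): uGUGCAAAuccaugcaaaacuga
miR-92a-3p (Mir92-1): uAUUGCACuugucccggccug

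Mir17 and Mir20a shared 1 seed, and their products differed at 2 of 23 bases (C1U and C12U from miR-17-5p to miR-20a-5p, counted from the 5′ end). The seed of miR-18a-5p departed from theirs at A4G. The products of Mir19a and Mir19b-1 had the same seed and differed at 1 base, U11C. The product of Mir92-1 had a seed of its own within the cluster and the highest GC content, 57.1%, against 34.8% for miR-19a-3p, the lowest.

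The products of 2 members, Mir19b-1 and Mir92-1, were encoded a second time, in Mir19b-2 and Mir92-2 of the related cluster on chromosome X. Reads that aligned to several places were not counted at genes, so the hairpins are shown with the longest run they share in capitals.
Mir19b-1: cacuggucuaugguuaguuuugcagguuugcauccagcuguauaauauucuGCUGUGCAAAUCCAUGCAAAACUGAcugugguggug
Mir19b-2: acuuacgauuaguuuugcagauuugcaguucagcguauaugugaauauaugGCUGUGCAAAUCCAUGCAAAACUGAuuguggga
Mir92-1: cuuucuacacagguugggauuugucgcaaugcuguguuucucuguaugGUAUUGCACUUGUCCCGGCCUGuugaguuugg
Mir92-2: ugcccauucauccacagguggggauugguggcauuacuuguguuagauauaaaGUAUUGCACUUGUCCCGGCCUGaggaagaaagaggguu

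The shared run was 25 bases in the Mir19b pair and 22 bases in the Mir92 pair. In both pairs it ended at the last base of the annotated mature product, and the next base differed between the hairpins of a pair. Reads that lie wholly within the run align to both hairpins and were not counted. The counts of these genes come from reads that reach beyond it or lie elsewhere in the hairpin. The other 4 members had no second hairpin with the same mature product among 1005 RefSeq hairpins. Their longest run shared with any other hairpin was 13 bases for Mir17 (with Mir106a) and Mir19a (with Mir19b-2), and 17 bases for Mir18 (with Mir18b) and Mir20a (with Mir3966). Whether these products match other places in the genome was not analysed here.

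All 6 hairpins lay on the plus strand inside exon 2 of the long non-coding RNA gene Mir17hg (mm10, chr14:115042879-115046727; exon 2 is chr14:115043271-115046727). Mir17 came first at chr14:115043671-115043754, followed by Mir18 at chr14:115043851-115043946 and Mir19a at chr14:115044000-115044081. Mir20a was at chr14:115044157-115044263, Mir19b-1 at chr14:115044305-115044391 and Mir92-1 at chr14:115044427-115044506. The cluster spanned 836 bases, with gaps of 35 to 96 bases between hairpins. No read was counted on the opposite strand at any member in either library. Minimum free energies of the hairpins, computed with RNAfold, ran from -38.7 kcal/mol for Mir19a to -29.2 kcal/mol for Mir18.

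Replicate 1 held 5752428 counts at miRNA genes and replicate 2 held 3333149, and levels are given as CPM, these counts scaled to a total of 1e6. With 3 counts as the limit, a count of 0 allowed levels of up to 0.522 CPM (replicate 1) and 0.900 CPM (replicate 2). Reads aligned to several places made up 39.4% and 41.2% of the aligned reads, and how many came from this cluster was not tested. The adrenal markers Mir375 of endocrine cells (68780 and 46236 CPM) and Mir132 of steroid-producing tissue (1416 and 1449 CPM) were present in both libraries. The other genes listed with each were lower. With Mir375, Mir7b had 3666 and 4819 CPM, Mir7-1 had 240 and 290, and Mir7-2 had 117 and 101. With Mir132, Mir212 had 36.7 and 87.6 CPM and Mir202 had 8.69 and 13.2. The genes listed with Mir375 did not all move in the same direction between the libraries. Intervals below are exact Clopper-Pearson intervals at 95%. They cover counting error only, because the labels give no molecular identifiers and reads can repeat a molecule.

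The cluster was moderately represented in the adrenal gland and very unevenly so across its members. Mir17, Mir92-1 and Mir20a held nearly all of its counts, Mir18 was several-fold lower, and both miR-19 genes were close to the limit of detection. The 6 genes summed to 16885 counts in replicate 1 and 11133 in replicate 2. The levels were 2935 CPM (2891 to 2980) and 3340 CPM (3278 to 3403), or 3138 ± 286 CPM (mean ± SD, n = 2). By the rule of 2 CPM or more in both libraries, 4 of the 6 members were detected, beside 372 of all 2202 miRNA genes.

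**Figure D1:**
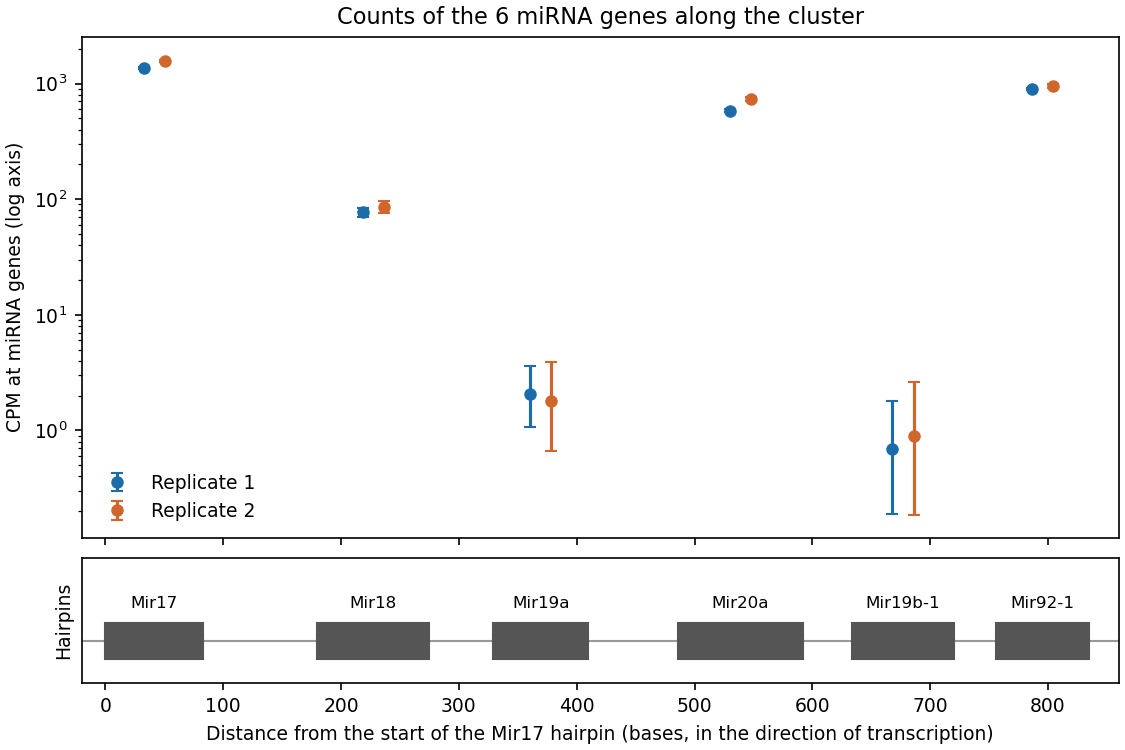
CPM of each member (log axis) above its hairpin, drawn by distance in bases from the start of Mir17; points are single libraries and bars are 95% Clopper-Pearson intervals of the counts. Mir17, Mir20a and Mir92-1 lie between 583 and 1572 CPM, Mir18 near 81.3 CPM, and Mir19a and Mir19b-1 at 2.09 CPM or lower.

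Mir17 was the highest member by the reads counted. The miR-17 seed is known to repress Cdkn1a, an inhibitor of the cell cycle, and the pro-apoptotic gene Bcl2l11. Mir17 had 7907 counts in replicate 1 and 5239 in replicate 2, which gave 1375 CPM (1344 to 1405) and 1572 CPM (1530 to 1615). It ranked 60 among all miRNA genes in both libraries. Mir20a, with the same seed, had 3353 and 2438 counts, or 583 CPM (563 to 603) and 731 CPM (703 to 761), and ranked 100 and 94. For both genes replicate 2 was the higher library by CPM, and the counting intervals of the libraries did not overlap.

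Mir92-1, the last hairpin of the transcript, was second in level. Its product miR-92a is known in endothelial cells, where it restrains vessel growth. It had 5166 and 3162 counts, which gave 898 CPM (874 to 923) and 949 CPM (916 to 982), at ranks 78 and 80. The libraries were close here, with intervals that overlapped. Mir18, whose product is known to target the connective tissue growth factor Ccn2, had 443 and 285 counts. These were 77.0 CPM (70.0 to 84.5) and 85.5 CPM (75.9 to 96.0), again with overlapping intervals.

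The miR-19 genes stood apart at the low end. In lymphoma models the miR-19 products are known to carry much of the growth effect of the cluster. Mir19a had 12 counts in replicate 1 and 6 in replicate 2, or 2.09 CPM (1.08 to 3.64) and 1.80 CPM (0.661 to 3.92). Mir19b-1 had 4 and 3 counts, or 0.695 CPM (0.189 to 1.78) and 0.900 CPM (0.186 to 2.63). Both genes were low in both libraries, with overlapping intervals. Mir19b-1 has the second copy shown above. No other RefSeq hairpin holds the product of Mir19a, and copies elsewhere in the genome were not searched. The part that uncounted reads play in these low values was not tested.

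By the reads counted, the order of the members, Mir17, Mir92-1, Mir20a, Mir18, Mir19a and Mir19b-1, was the same in both animals. It did not follow their order along the transcript. Reads within the runs shared with Mir92-2 and Mir19b-2 are missing from Mir92-1 and Mir19b-1. Whether these reads would change the order or the steps was not tested. Mir17 exceeded Mir92-1 1.53-fold in replicate 1 (1.48 to 1.59) and 1.66-fold in replicate 2 (1.59 to 1.73). Mir92-1 exceeded Mir20a 1.54-fold (1.47 to 1.61) and 1.30-fold (1.23 to 1.37). Mir20a exceeded Mir18 7.57-fold (6.85 to 8.38) and 8.55-fold (7.56 to 9.71). Each of these steps was above 1 by its counting interval in both libraries. Mir18 exceeded Mir19a 36.9-fold (20.9 to 72.0) and 47.5-fold (21.6 to 131). The last step was not resolved at this depth: Mir19a was 3.00-fold (0.909 to 12.8) and 2.00-fold (0.427 to 12.4) above Mir19b-1. Dividing by hairpin length, an alternative added after the values were seen, left the order as it was, from 1754 CPM per 100 bases for Mir17 and 1154 for Mir92-1 to 0.917 for Mir19b-1.

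The composition of the cluster does not depend on how the libraries are scaled to each other, and it was nearly the same in the 2 animals. It covers counted reads only, without those in the runs that Mir92-1 and Mir19b-1 share with their copies. How far these reads would change the shares was not tested. Mir17 held 46.8% of the cluster's counts in replicate 1 (46.1 to 47.6) and 47.1% in replicate 2 (46.1 to 48.0). Mir18 held 2.62% (2.39 to 2.88) and 2.56% (2.27 to 2.87). For these genes the libraries differed by less than the counting error. Mir92-1 held 30.6% (29.9 to 31.3) and 28.4% (27.6 to 29.2), while Mir20a held 19.9% (19.3 to 20.5) and 21.9% (21.1 to 22.7). The share of Mir92-1 was 2.19 percentage points higher in replicate 1 and that of Mir20a -2.04 points (lower), and their intervals did not overlap between libraries. With 1 library per animal, this shift has no replicate check. The miR-19 genes held 0.0711% and 0.0539% (Mir19a) and 0.0237% and 0.0269% (Mir19b-1).

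The closest relatives of the cluster are the Mir106b cluster on chromosome 5 (Mir106b, Mir93 and Mir25), which lies in an intron of the replication gene Mcm7, and the Mir106a cluster on chromosome X (Mir106a, Mir18b, Mir20b, Mir19b-2, Mir92-2 and Mir363). The Mir106b cluster was counted at nearly the level of the Mir17 cluster, at 2592 CPM for replicate 1 and 3069 for replicate 2. None of its genes shares its mature product with another RefSeq hairpin. The sum of the Mir17 cluster lacks the reads that Mir92-1 and Mir19b-1 share with their copies. The effect of this on the comparison was not tested. The Mir106a cluster was far lower, with 85.9 and 106 CPM. Of the 9 genes of these clusters, 7 reached 10 counts in mean.

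**Figure D2:**
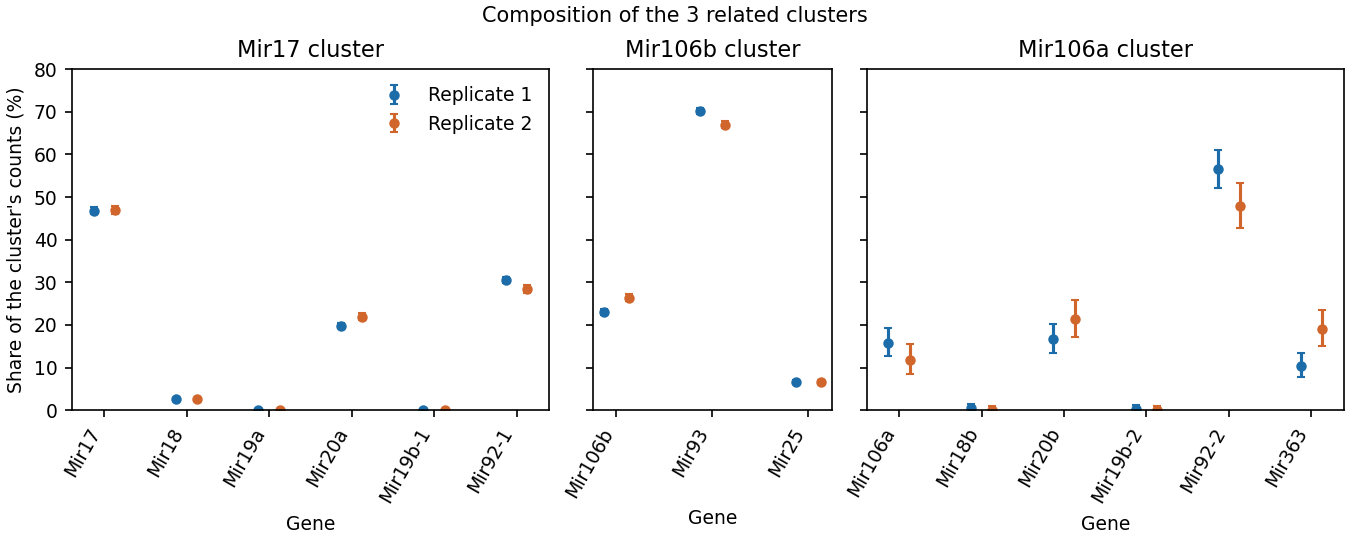
Share of each cluster's counts held by each gene (y axis, percent; x axis, genes in transcript order) for the Mir17 cluster and its relatives; points are single libraries and bars are 95% Clopper-Pearson intervals. In the Mir17 cluster the shares of Mir17 are 46.8% and 47.1%, and those of Mir92-1 and Mir20a shift by about 2 points between the libraries.

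Gene by gene, members exceeded their counterparts on the X chromosome by very different factors. Mir17 exceeded Mir106a, whose product differs from miR-17-5p at 1 base (U10A), 101-fold in replicate 1 (81.1 to 128) and 128-fold in replicate 2 (94.1 to 178). Mir20a exceeded Mir20b 40.9-fold (32.8 to 51.5) and 32.5-fold (25.8 to 41.5). By the reads that told them apart, Mir92-1 exceeded Mir92-2, with the identical mature product, 18.5-fold (16.4 to 20.9) and 18.7-fold (16.0 to 22.0). Within each of these pairs the intervals of the 2 libraries overlapped. Mir18 exceeded Mir18b, at 2 counts, 222-fold in replicate 1 (61.0 to 1835). In replicate 2 Mir18b had no count, and Mir18 was at 95 times the 3-count limit. The lower end of the exact interval of that fold over Mir18b was 76.8. Mir19b-2 had 1 and 0 counts, too few to set against Mir19b-1. The lowest genes of the X cluster by these counts were thus the miR-18 and miR-19 genes. Their counterparts were also among the 3 lowest members of the Mir17 cluster. Reads within the run shared by Mir19b-1 and Mir19b-2 were counted at neither gene. The part of this in their low counts was not tested. In this X cluster Mir92-2 led with 56.7% and 48.0% of the counts, where Mir17 led on chromosome 14.

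Grouped by seed over all annotated mature sequences, the cluster supplied very different shares of each group. The miR-17 seed (AAAGUGC) was found in 7 genes, which summed to 4404 and 5206 CPM. Mir17 and Mir20a held 44.4% of that sum in replicate 1 (43.8 to 45.1) and 44.2% in replicate 2 (43.5 to 45.0), so the larger part was counted at other loci. Mir93 was the highest gene of the group, at 1821 and 2057 CPM. It exceeded Mir17 1.33-fold (1.29 to 1.36) and 1.31-fold (1.26 to 1.36). Mir106b, at 597 and 811 CPM, was near Mir20a, and Mir6383 had no count.

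For the remaining seeds most of the reads counted came from the cluster itself. Reads within the runs shared by Mir92-1 and Mir92-2, and by Mir19b-1 and Mir19b-2, are left out of these sums. Mir18 held 443 of the 445 counts of the miR-18 seed (AAGGUGC) in replicate 1 and all 285 in replicate 2. Mir92-1 held 74.9% (73.9 to 76.0) and 72.6% (71.2 to 73.9) of the miR-92 seed group (AUUGCAC), which had 7 genes and summed to 1198 and 1307 CPM. Mir25 followed there with 174 and 202 CPM. The other genes of the group had 52.8 CPM or less, Mir92-2 among them with 48.7 and 50.7 CPM, and Mir367 had no count. All 3 genes of the miR-19 seed (GUGCAAA) together had 17 counts in replicate 1 and 9 in replicate 2. By these gene counts the miR-19 group was the lowest of the 4.

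**Figure D3:**
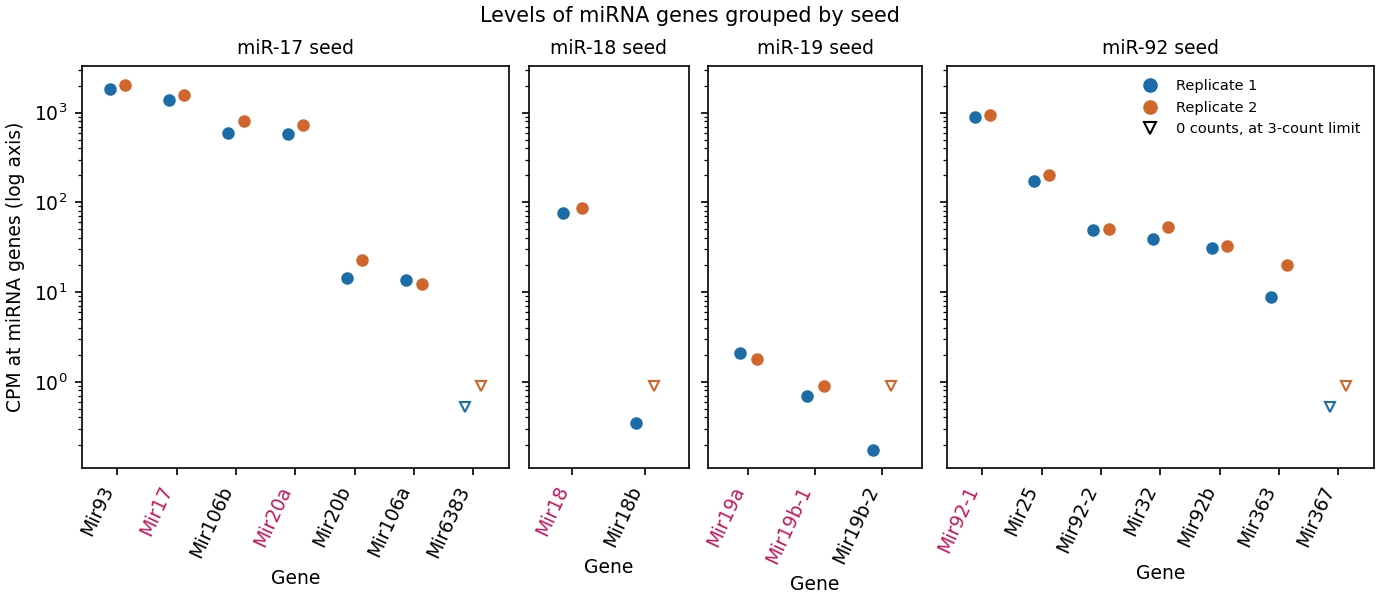
CPM of all miRNA genes that share a seed with a member (log axis), by seed, with member names in red; points are single libraries, and open triangles mark genes with 0 counts at the 3-count limit. Mir17 is second to Mir93 in the miR-17 group, Mir92-1 leads the miR-92 group, and all 3 genes of the miR-19 group are at 2.09 CPM or lower.

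How far the sum of the cluster differed between the animals depended on the scaling. Scaled by TMM, a method that takes most genes as unchanged, its log2 ratio of replicate 1 over replicate 2 was 0.01, with a counting error of 0.02 (SE). By total counts it was -0.19 with the same counting error, which is the difference in CPM given above. Of the 6 members, 4 had 10 or more counts in mean and were tested with a binomial test (exact, two-sided; Benjamini-Hochberg adjusted over all 389 such genes). Mir17 (log2 ratio 0.01, SE 0.03, adjusted p = 0.913) and Mir18 (0.05, SE 0.11, adjusted p = 0.765) passed no threshold. Mir92-1 was called higher in replicate 1 (0.12, SE 0.03, adjusted p = 0.000502) and Mir20a lower (-0.13, SE 0.04, adjusted p = 0.00165). Mir19a and Mir19b-1 had too few counts for the test.

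The test takes counting error alone, and it called 59.6% of all genes tested, 30.8% as higher and 28.8% as lower in replicate 1. With DESeq2 size factors the members' calls were again 1 higher and 1 lower, beside 59.1% of all genes called, 30.8% higher and 28.3% lower. The 2 calls among 4 members lay close to that background. The median log2 ratio of the 4 tested members was 0.03, beside 0.01 over all 389. When the spread between these libraries entered as a common dispersion, exactTest of edgeR called 0 of the 4 members (0 also at an unadjusted p under 0.05) and 1.03% of all genes, 0.771% as higher and 0.257% as lower. That dispersion was taken from the same 2 libraries that were compared, so this test could not call differences as small as the members'. It says nothing about them. With 1 library on each side, no difference has a replicate check.

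**Figure D4:**
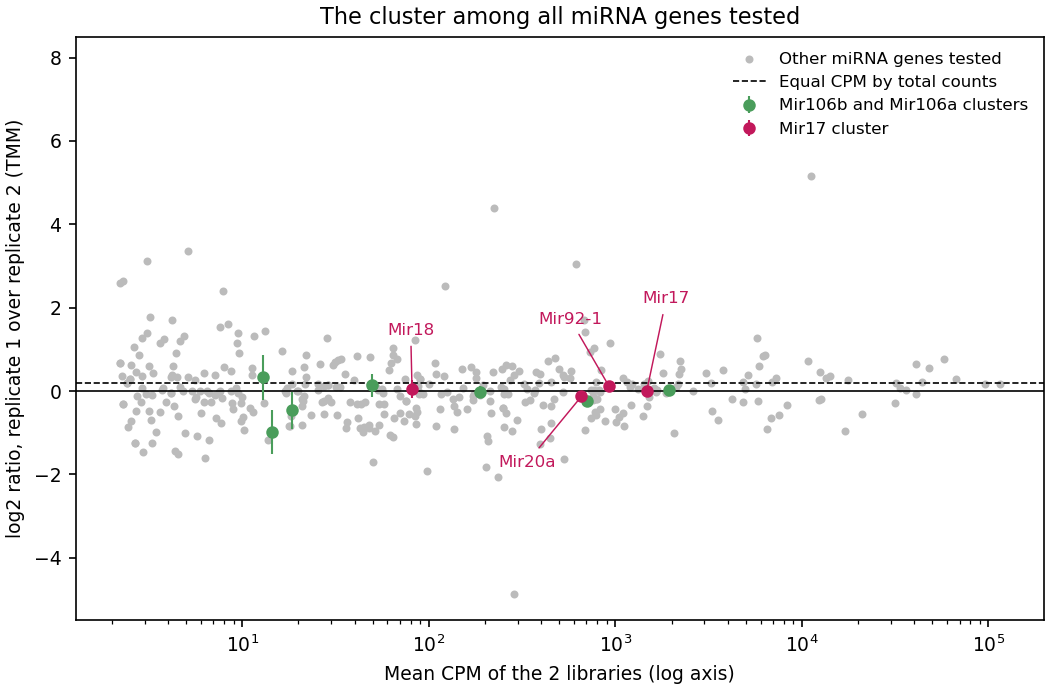
Log2 ratio of replicate 1 over replicate 2 after TMM scaling (y axis) against mean CPM (x axis, log) for the 389 miRNA genes tested; red points are the 4 tested members and green points genes of the related clusters, with bars of the counting interval at 95%. The members lie between -0.13 and 0.12, while the dashed line shows where genes with equal CPM by total counts fall.

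For 3 of the 4 tested members the direction of these small differences depended on the scaling, while Mir20a was lower in replicate 1 under TMM, total counts and DESeq2 size factors. By total counts, Mir17 (-0.19), Mir18 (-0.15), Mir20a (-0.33) and Mir92-1 (-0.079) were all on the lower side in replicate 1, and 3 of the 4 were called lower. Of all genes 65.6% were called by total counts, 43.7% as lower and 21.9% as higher. The median of all genes moved with it, from 0.01 to -0.19. Relative to that median Mir20a stayed lower and Mir92-1 higher. The erythroid markers Mir451a, Mir144 and Mir486 summed to 22813 CPM in replicate 1, and to 901 CPM in replicate 2. With these markers left out of the totals, an alternative added after the values were seen, the log2 ratio of the cluster's sum by total counts was -0.15. The part of blood in the difference was not tested. White blood cells also express the cluster, and the sum of their markers Mir142, Mir155, Mir150, Mir223 and Mir146 was 2956 and 3251 CPM. Mir146 led this list with 1522 and 1474 CPM, and its members did not move together: Mir223 had 36.7 and 159 CPM, Mir150 had 688 and 901 CPM, and Mir142 had 391 CPM in both. The endothelial marker Mir126a had 69154 and 65133 CPM. The liver marker Mir122 had 690 and 1331 CPM, and the kidney markers had 91.8 and 136 CPM in sum. By total counts both were lower in replicate 1, as was the median of all genes. Under TMM their log2 ratios were -0.75 and -0.36, beside 0.01 for the cluster. Within the kidney list Mir194-2 went the other way under TMM (0.15). The part of any of these cell types in the cluster's level was not tested, and in whole tissue fewer cells of a type and less RNA per cell cannot be told apart.

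In the Mir106b cluster the composition shifted between the animals as well, with Mir93 at 70.3% (69.5 to 71.0) of its counts in replicate 1 and 67.0% (66.1 to 67.9) in replicate 2. Of the 7 tested genes of the related clusters, 2 were called under TMM, Mir106b (log2 ratio -0.24) and Mir363 (-0.98), both lower in replicate 1. That is 28.6% of the 7, beside the 59.6% called over all genes. Their median log2 ratio was -0.02. By total counts 5 of the 7 were called lower and 0 higher, beside 43.7% of all genes called lower. With the common dispersion 0 of the 7 were called by exactTest of edgeR, beside 1.03% of all genes, and 0 had an unadjusted p under 0.05. That dispersion came from the same 2 libraries that were compared, so no conclusion about these genes is drawn from it.

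The spread inside the cluster was wider than in most miRNA clusters, but not among those with as many genes. Mir17 exceeded Mir19b-1 1977-fold in replicate 1 (772 to 7257) and 1746-fold in replicate 2 (597 to 8471). On the log2 scale with 0.5 counts added, the highest member exceeded the lowest by 10.66 ± 0.16 (SD, n = 2). Without Mir19b-1 and Mir92-1, whose products have a second hairpin, it was 9.48, set by Mir17 over Mir19a. Among 50 clusters of miRNA genes on 1 strand with gaps of at most 10 kb and a leading gene of 100 or more counts in mean, the cluster ranked 8 by this spread, where the median was 5.04. Among the 8 clusters with 5 or more genes it ranked 5, and their median was 10.86. The Mir106b cluster, with 3 genes, spread by 3.37. The Mir106a cluster stood at 7.98, a value that rests on the 0.5 counts added, since its lowest genes had 0 counts in replicate 2.

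**Figure D5:**
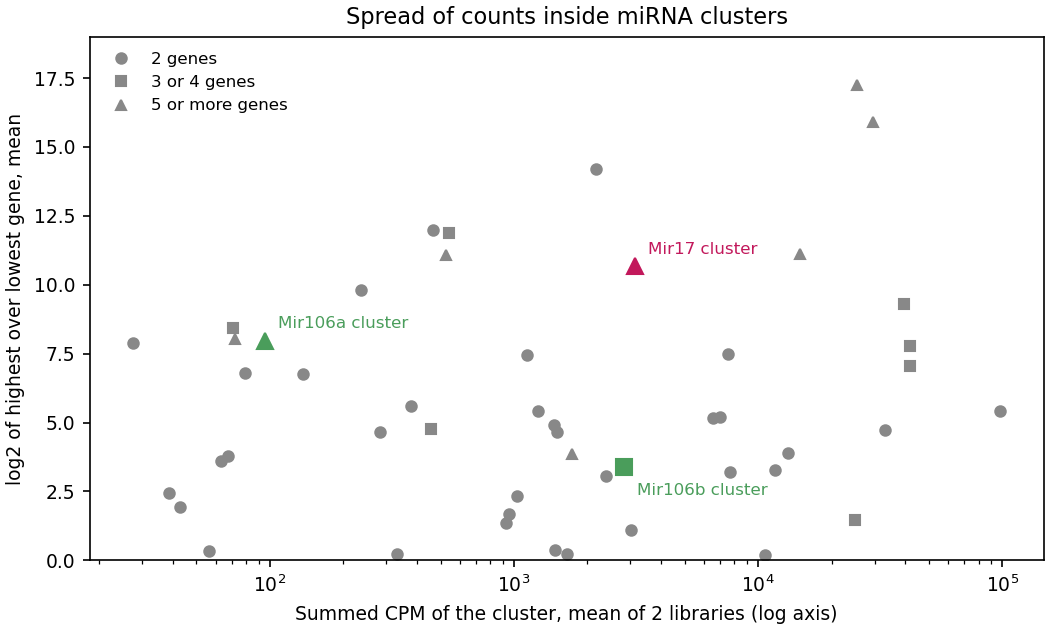
Log2 of the highest over the lowest gene (y axis, mean of the libraries, 0.5 counts added) against summed CPM (x axis, log) for 50 clusters of miRNA genes, with marker shapes for the number of genes. The Mir17 cluster lies at 10.66 and 3138 CPM, above the Mir106b cluster of nearly the same counted level at 3.37.

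The miRNA genes nearest to each member in level were found by the distance of log2(CPM + 1) over the 2 libraries. For Mir17 these were Mir337 (1330 and 1694 CPM, distance 0.12) and the steroid-tissue gene Mir132 (distance 0.12). For Mir20a they were Mir106b (distance 0.15) and Mir185 (694 and 789 CPM, distance 0.28). Mir92-1 was nearest to Mir221 (762 and 882 CPM, distance 0.26) and Mir181d (763 and 866 CPM, distance 0.27), and Mir18 to Mir5099 (distance 0.15) and Mir679 (distance 0.17). The genes near Mir19a, Gm47295 and Mir7019, and those near Mir19b-1, Gm23388 and Mir7059, had 2.26 CPM or less. For Mir19b-1, 3 genes had the same counts as the member, at distance 0, and the first 2 are named. With 2 libraries this likeness is one of level alone.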

How the data were processed

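Small RNA libraries of whole adrenal glands, 1 for each of 2 mice, formed 1 group. The deposited data are raw counts of reads at each miRNA gene of GENCODE M21 (mm10, per the files that describe each library), with no normalization applied. Neither aligner nor trimming is given in the sources used here. Of the 3 columns in a file, the one that the values show to hold reads on the gene's strand was used. Rows that name no gene (66.2% and 69.0% of the reads, which were mostly unaligned or aligned to several places) stayed out of totals and tests.

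The members were set by gene symbol, but they and the lists were chosen with earlier results of these data known. Named genes were the 6 members, the 9 genes of the related clusters, the 2 genes nearest in level to each member, cell type markers, and the highest and lowest genes of a seed group.

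Replicates of 1 group leave nothing to fit with a quasi-likelihood model. The libraries were therefore compared over genes with a mean of 10 or more counts, using a binomial test (exact, two-sided) whose null share came from TMM library sizes of edgeR 4.0.16. P-values were adjusted by the Benjamini-Hochberg method and called at 0.05. The test was checked on simulated counts with counting error alone, where it called 0 of 385 unchanged genes. In a simulation with changed genes it called 3.17% of the unchanged, 93.9% of the 3-fold and 73.5% of the 1.5-fold changes. Neither simulation held a spread between animals, so they do not show how the test behaves on these libraries. Log2 ratios have 0.5 counts added, and their SE covers counting error. Total counts, DESeq2 1.42.0 size factors, other filters and pseudocounts, other denominators, the unstranded column, and leaving out genes or a library were alternatives.

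Sequences were read from RefSeq tables of build GRCm38.p6, where coordinates and hairpins of all members equalled those of GENCODE. Symbols of 968 of the 2202 genes matched a RefSeq hairpin. Hairpins were folded with RNAfold 2.7.2. Software was R 4.3.3 and Python 3.11.15 with SciPy 1.17.1, NumPy 2.4.6 and pandas 2.3.3, and matplotlib 3.10.9 for figures.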

Additional observations from a re-analysis of the deposited data

How the results depend on the processing

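By the reads counted, the order of the members and the steps between neighbours kept their direction in each library, as given above. Unstranded counts could not change them, because no member had a read on the opposite strand. Levels depended on the denominator. The sum of the cluster, 3138 CPM at miRNA genes, was 3725 CPM by unstranded counts, 1014 when scaled to all reads of the file, 1488 when scaled to aligned reads, and 7441 when the 10 genes of highest mean CPM were left out of the total. Without Mir19b-1 and Mir92-1 the shares rose to 66.6% for Mir17, 29.6% for Mir20a, 3.68% for Mir18 and 0.0889% for Mir19a, as fewer genes share the sum. The spread inside the cluster became 9.48 without these genes and 10.49 with 1 count added. By total counts the log2 ratio of the sum turned from 0.01 to -0.19. It was -0.0195 by unstranded counts, and -0.15 without the erythroid markers, an alternative chosen after seeing the data. Single members turned as well: Mir17 to -0.19, -0.16 without the erythroid markers and -0.027 by unstranded counts; Mir18 to -0.15 and -0.12; Mir92-1 to -0.079 and -0.047. The last passed the threshold by total counts (adjusted p = 0.0251) and did not without the erythroid markers (adjusted p = 0.208). Calls among members fell from 2 to 0, and among all genes from 232 to 4, with the common dispersion of edgeR, which adds the spread between the libraries. That dispersion was taken from the same 2 libraries, so the fall among members was fixed in advance. No paired analysis was possible because the series has 1 group. Counts were fewest at the miR-19 genes, with 12 or fewer each. The part of depth or of uncounted reads in this was not tested.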
